A study of Salmo salar with 8 samples.

Results

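The *cd83* gene, 1 of 1449 genes with a name in these data, was followed by 5 probes of a salmonid array that holds 43689 probes. They are all the probes with the symbol CD83 in the study's annotated list of probes changed between culture days, and they were found in the scanner data through their identifiers. That list was drawn up by a paired comparison of the same 8 arrays, so the 5 probes were chosen by their difference in log2 ratio between the days. The values below describe them, and no p is given as evidence of that change. Adherent head kidney leukocytes (HKLs) are white blood cells of the anterior kidney, the main blood-forming organ of teleost fish, that stick to plastic in culture. From 4 Atlantic salmon (*Salmo salar*) such cells were isolated on a Percoll gradient and cultured in L-15 medium with serum and antibiotic, without an added stimulus. Each fish gave a sample at 120 h after seeding (Day 5) and a sample at 24 h (Day 1), and cells that had not attached were rinsed away before each sampling. The 8 samples were labelled with Cy5, and each was hybridised with the same Cy3-labelled reference, a pool of all samples. There was no dye swap, and every level is a log2 ratio of sample over pool. The study first hybridised 5 fish and removed 1, giving a labelling error and samples that did not group by day as reasons. Whether the pool held RNA of the removed fish is not stated.

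CD83 is a membrane glycoprotein of the immunoglobulin superfamily. In mammals it is best known as a surface marker of mature dendritic cells, and it also appears on activated B cells, T cells and macrophages. In mice its transmembrane part keeps MHC class II and the costimulatory ligand CD86 at the surface by opposing their ubiquitination. The CD83 promoter of mammals is driven by NF-kB, the transcription factor downstream of Toll-like receptors and of tumour necrosis factor.

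The arrays lay on 3 slides. Both arrays of Fish 1 and of Fish 3 shared a slide within the fish, whereas Fish 2 and Fish 4 had their Day 5 array on one slide and their Day 1 array on another. The median Cy5 signal of all probes ranged from 176 to 594 over the arrays, and the limit set by the 153 negative control spots (their mean plus 2 SD) from 159 to 693. Precision is limited by the number of arrays, which gives at most 4 differences within fish per probe.

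The 5 probes differed in the strength of their signals. Probes C029R116, C026R036 and C035R097 were read far above the negative-control limit on all 8 arrays, with scanned Cy5 signals between 5722 and 48348 for C029R116, between 7713 and 48255 for C026R036 and between 6805 and 46142 for C035R097. Probes C174R152 and C022R122 were closer to it, with scanned Cy5 signals between 491 and 3867 for C174R152 and between 396 and 1216 for C022R122. Of the 40 *cd83* spots, 38 exceeded the limit of their array in Cy5. The other 2 were C174R152 and C022R122 in Fish 4 at Day 1, with C022R122 at 0.76 of the limit, so the low end of these probes was read near the detection floor. In Fish 2 at Day 5, 3 spots were saturated in Cy5 (median pixel at the scanner's maximum of 65535). They belong to C029R116, C026R036 and C035R097, and no *cd83* spot was saturated in Cy3. Saturated spots were kept at their value, which understates the true signal. The C029R116 spot of that array carried a mark for background contamination as well and was set to missing, so its change rests on 3 fish.

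**Figure D1:**
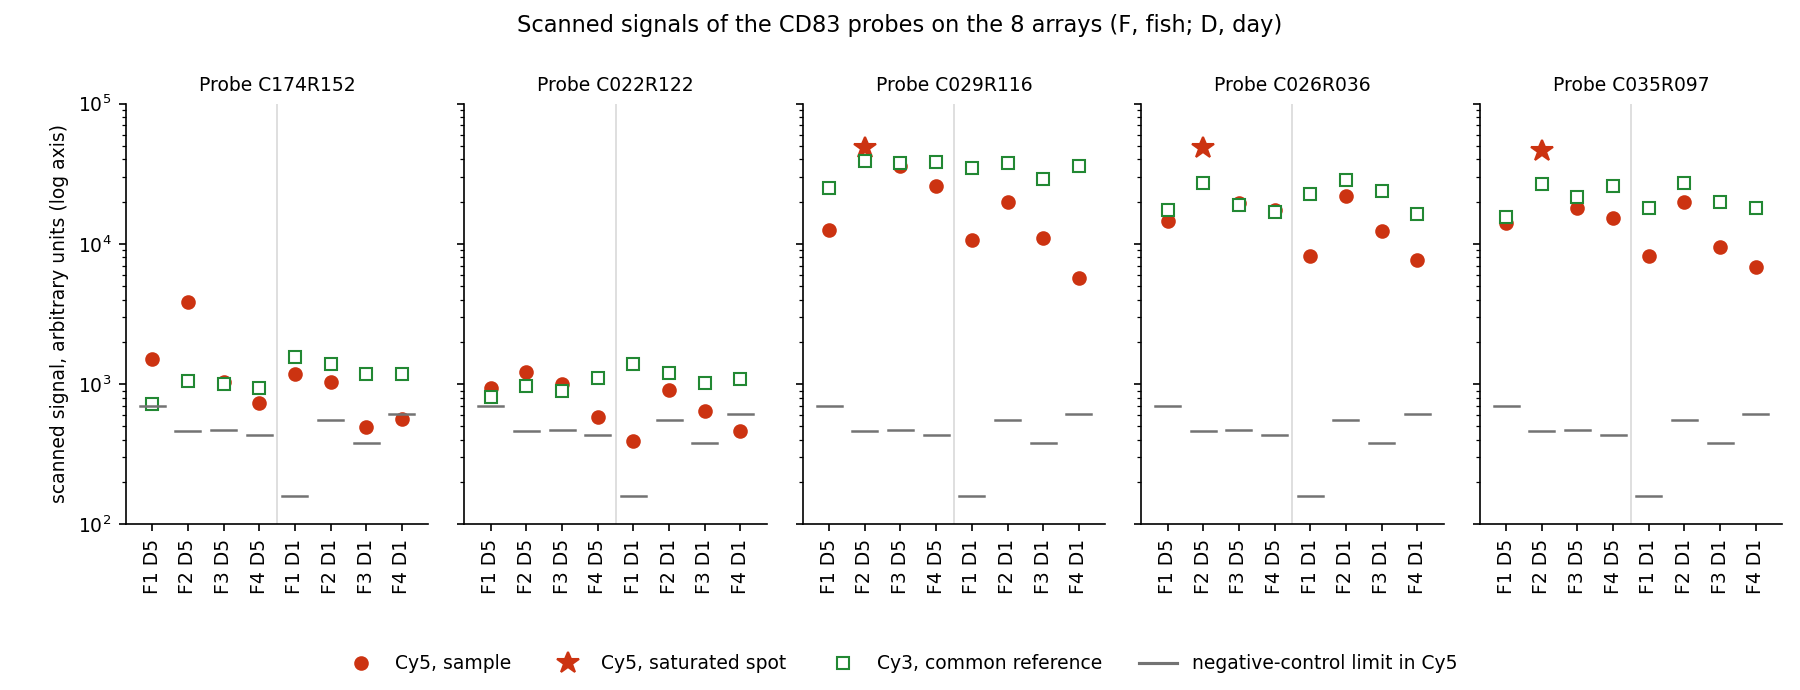
Scanned signal in arbitrary units (log axis) of the 5 CD83 probes on each array, with the 4 Day 5 samples left of the 4 Day 1 samples. Filled red points are the sample in Cy5, stars are saturated Cy5 spots, open green squares are the common reference in Cy3, and grey bars mark the negative-control limit of each array in Cy5. The 3 saturated spots all lie in Fish 2 at Day 5, and the 2 spots under the limit in Fish 4 at Day 1.

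For probe C026R036, the log2 ratios in Fish 1 to Fish 4 were -0.21, 0.77, 0.11 and 0.14 at Day 5, against -1.08, -0.22, -0.87 and -0.76 at Day 1. All 4 Day 5 values lay above all 4 Day 1 values, by a margin of 0.01, and 5.33% of all tested probes showed that separation. The differences within fish (Day 5 minus Day 1) were 0.87, 0.99, 0.97 and 0.90, with a mean of 0.93 ± 0.06 (SD, n = 4 fish), a 1.91-fold higher level at Day 5. Of the 5 probes, this one varied least between fish in its change, with the Fish 2 value resting on a saturated Day 5 spot. In the deposited processed values its differences were wider apart, at 0.65, 0.91, 1.32 and 1.32 in Fish 1 to Fish 4.

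For probe C035R097, the log2 ratios in Fish 1 to Fish 4 were -0.04, 0.75, -0.19 and -0.69 at Day 5, against -0.72, -0.28, -0.93 and -1.07 at Day 1. Each fish was higher at Day 5, but the days overlapped, since Fish 4 at Day 5 lay under Fish 2 at Day 1. The mean difference was 0.71 ± 0.27 (SD, n = 4), or 1.63-fold. With saturated spots set to missing, which removes Fish 2 at Day 5, the fitted change was 0.60 for this probe and 0.91 for C026R036.

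For probe C022R122, the log2 ratios in Fish 1 to Fish 4 were -0.26, 0.61, 0.46 and -0.83 at Day 5, against -1.24, -0.21, -0.42 and -1.39 at Day 1. The same fish were high or low on both days, with Fish 2 and Fish 3 above Fish 1 and Fish 4. The differences within fish lay between 0.56 and 0.98 and averaged 0.81 ± 0.18 (SD, n = 4), or 1.75-fold. The fitted change was 0.50 with median centring and 1.42 with the deposited processed log2 ratios, where this was the one *cd83* probe past the threshold.

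For probe C174R152, the log2 ratios in Fish 1 to Fish 4 were 0.93, 2.06, 0.33 and -0.37 at Day 5, against 0.12, -0.48, -0.97 and -1.12 at Day 1. Fish 2 stood out at Day 5, where its scanned Cy5 signal was 3867, and Fish 4 at Day 5 lay under Fish 1 at Day 1. The differences were 0.82, 2.53, 1.30 and 0.75, with a mean of 1.35 ± 0.83 (SD, n = 4), or 2.55-fold. Without Fish 2 the fitted change was 0.96.

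For probe C029R116, the log2 ratios in Fish 1, Fish 3 and Fish 4 were -0.93, -0.13 and -0.58 at Day 5, against -1.39, -1.32 and -2.46 at Day 1, with -0.81 in Fish 2 at Day 1. The lowest value was that of Fish 4 at Day 1, and Fish 1 at Day 5 lay under Fish 2 at Day 1. The differences were 0.46, 1.19 and 1.89 in Fish 1, Fish 3 and Fish 4, with a mean of 1.18 ± 0.71 (SD, n = 3), or 2.27-fold. In the deposited processed values, which hold no gaps, Fish 2 had 0.41 at Day 5 and -0.91 at Day 1 for this probe.

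**Figure D2:**
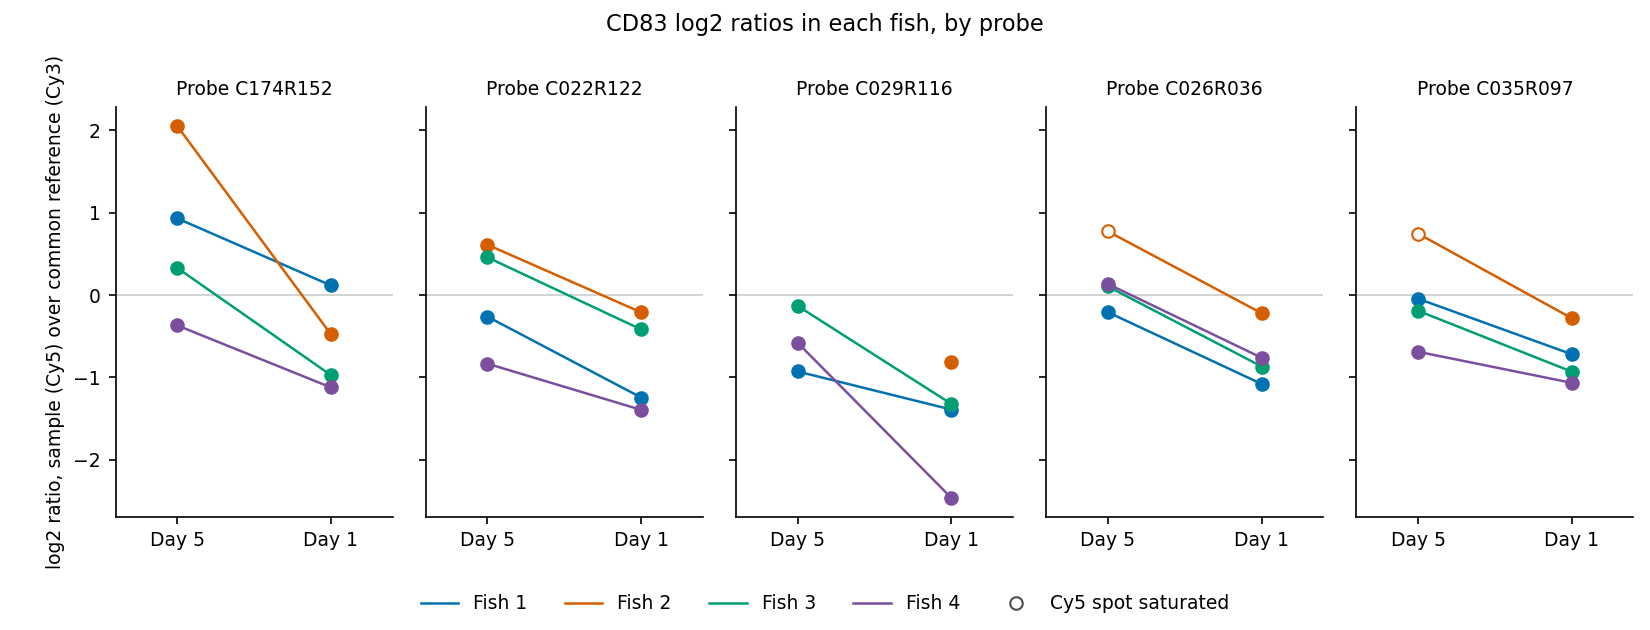
Log2 ratio of sample over common reference for each CD83 probe, with Day 5 left of Day 1 and 1 line per fish. Open points are saturated Cy5 spots, and the Day 5 value of Fish 2 for C029R116 is missing. All lines slope down towards Day 1, and in 4 of the 5 panels the 2 days overlap.

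All 19 differences that could be measured (5 probes in 4 fish, less the missing one) were above 0, from 0.38 for C035R097 in Fish 4 to 2.53 for C174R152 in Fish 2. Since the study selected the probes for this contrast, a common direction was built into the choice. Among tested probes with a value in every fish, 11.4% were higher at Day 5 in all 4 fish, and 12% were higher in every fish measured when probes with 3 fish were included. Averaged over the probes, the difference was 0.76 ± 0.20 in Fish 1, 1.34 ± 0.80 in Fish 2, 1.02 ± 0.23 in Fish 3 and 0.90 ± 0.59 in Fish 4 (SD over 5 probes, 4 in Fish 2). These correspond to 1.70-, 2.54-, 2.02- and 1.86-fold higher levels at Day 5. The fitted change of the gene, the mean of its 5 fitted probe changes, was 1.00 on the log2 scale (1.99-fold), and the SD of the mean difference over fish was 0.25. This is a larger change than that of 95.7% of the tested probes, a rank that follows in part from the way the probes were chosen.

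In limma's fit over 39410 probes with fish as a block, 0 of the 5 *cd83* probes passed the Benjamini-Hochberg threshold of 0.05. In that fit 1.36% of all tested probes passed in either direction and 0.751% passed as higher at Day 5, and 5165 probes had an unadjusted p under 0.05. Because the same contrast had chosen the probes, nothing is read from this count. Paired SAM recomputed on the deposited processed log2 ratios gave the 5 probes statistics between 1.84 (C174R152) and 2.36 (C022R122), against a limit of 1.60 for a call in the upward direction, and it called 11.5% of the 18108 probes. The study had selected the 5 probes by paired SAM on these arrays. Their passing this limit follows from that choice, and nothing is read from it. No *cd83* probe just outside the limit can be given, since only the selected probes have names in the sources used here. In these deposited values all 20 differences were above 0, and the mean over probes and fish was 1.28 ± 0.36 (SD over 4 fish).

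**Figure D3:**
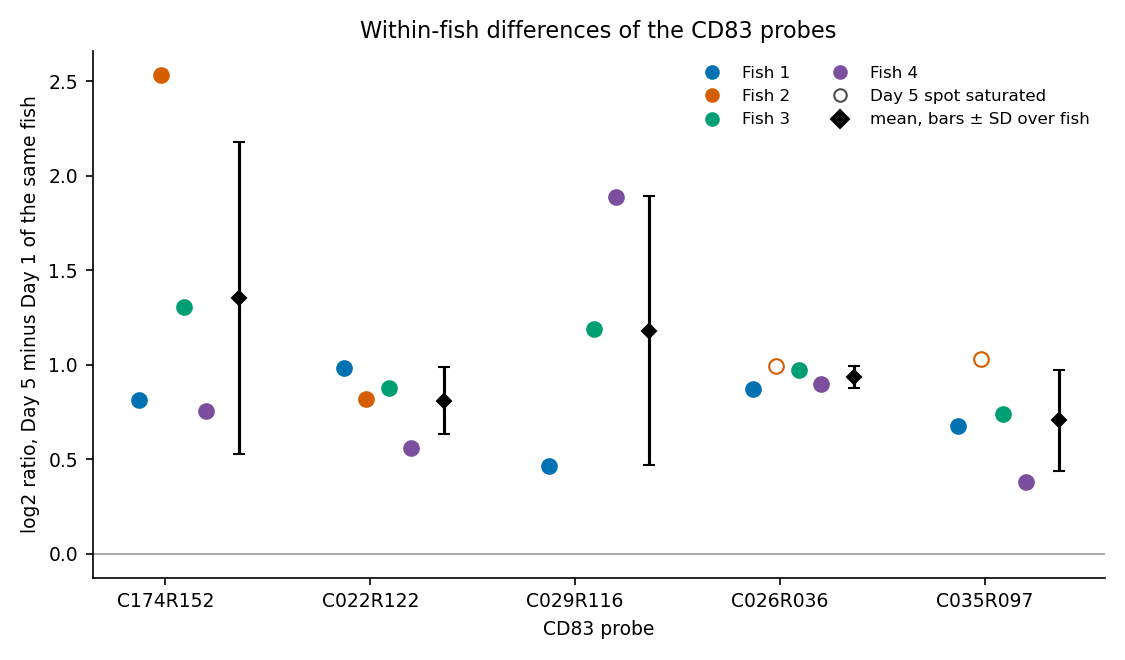
Difference in log2 ratio between Day 5 and Day 1 of the same fish for each CD83 probe. Coloured points are fish, open points rest on a saturated Day 5 spot, and black diamonds with bars are the mean ± SD over fish. All 19 points lie above 0, and the spread is narrowest for C026R036 (SD 0.06) and widest for C174R152 (SD 0.83).

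The values were also read by slide. In Fish 1 and Fish 3, whose samples of both days shared a slide, the mean difference over the probes was 0.89, and in Fish 2 and Fish 4, whose days lay on different slides, it was 1.12. By fish, the differences were 0.76 and 1.02 on a shared slide and 1.34 and 0.90 on different slides. So few fish per arrangement cannot separate slide from fish. With slide as a fixed block beside fish only Fish 1 and Fish 3 inform the change, and the 5 fitted probe changes lay between 0.71 (C035R097) and 1.06 (C174R152). With slide as a random block, 3 of the 5 probes passed the threshold, where 6.26% of all tested probes did so. The part of the slide in the size of the change was not tested.

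The 5 probes agreed within a range of 0.65 in their fitted change, from 0.71 (C035R097) to 1.35 (C174R152). Among the 45 named genes with 4 or more tested probes the median range was 0.77, and 18 genes had a narrower one than *cd83*. Among the 313 genes with 2 or more tested probes the median was 0.48, and 191 genes had a narrower range. All of these genes were named through the same selected list, and in 287 of the 313 all probes changed in a common direction. The probe profile over the arrays that lay nearest to the mean of the 5 was that of C035R097 (root mean square difference 0.19), and the one farthest was that of C174R152 (0.49).

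Fish differed in their *cd83* level within a day. The paired selection favours probes with even differences within fish, so a fish order kept on both days is not free of it. At Day 5 the highest fish was Fish 2 for 4 of the 5 probes and Fish 3 for C029R116, for which Fish 2 had no value. The lowest at Day 5 was Fish 4 for 3 probes and Fish 1 for the other 2. At Day 1 Fish 2 was highest for 4 probes, and Fish 4 was lowest for 4 probes. Across the 26460 probes measured on all 8 arrays, Fish 2 was highest for 25.5% at Day 5 and for 28.9% at Day 1, and Fish 4 was lowest for 24.0% at Day 5 and for 24.6% at Day 1. The 5 probes share 1 gene symbol and the same arrays, so their shared order of the fish counts as 1 observation per sample. Whether they read 1 transcript or several was not tested.

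With each probe centred on its own mean and the probes averaged, the *cd83* level was 0.53 ± 0.57 at Day 5 and -0.46 ± 0.39 at Day 1 (SD, n = 4 fish each, log2 scale). The level of Fish 2 at Day 5 averages 4 probes, without C029R116, and that of each other sample averages 5. From high to low, the samples were Fish 2 Day 5 (1.30), Fish 3 Day 5 (0.53), Fish 1 Day 5 (0.32), Fish 2 Day 1 (0.02), Fish 4 Day 5 (-0.05), Fish 1 Day 1 (-0.44), Fish 3 Day 1 (-0.48) and Fish 4 Day 1 (-0.94). The days therefore crossed at one place, where Fish 2 at Day 1 stood above Fish 4 at Day 5. That pair differed by 0.07 ± 0.43 (SD over 5 probes), with 2 of 5 probes in that order. Only the step at the top was larger than its spread over probes: Fish 2 Day 5 exceeded Fish 3 Day 5 by 0.87 ± 0.66, in 4 of 4 probes. The remaining 5 steps between neighbours were smaller than the SD of the step over the probes. This SD is between probes on the same arrays and does not measure the variation between samples.

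The reference channel shows how far the signal of the pool varied over the arrays after normalization. It does not carry the preparation and Cy5 labelling of each sample, whose part in the Cy5 spread was not tested. After loess and quantile normalization of the average intensities, the SD of the single-channel log2 signal over the arrays was 0.60 to 0.98 in Cy5 and 0.15 to 0.27 in Cy3 for the 5 probes. The Cy5 signal was higher at Day 5 in every measured fish for every probe, by a mean of 0.80 (C022R122) to 1.45 (C029R116). The Cy3 signal of the common reference, which is the same pool on every array, differed between the days by a mean of -0.19 (C174R152) to 0.36 (C035R097). For C035R097 the Cy3 signal was higher at Day 5 in 4 of 4 fish, which lowers its ratio. The same held for C029R116 in 3 of 3 measured fish, by a mean of 0.27. For C174R152 it was lower in 4 of 4 fish, which raises its ratio. The Cy5 mean difference of C035R097 was 1.07 ± 0.17 and that of C174R152 was 1.16 ± 0.81 (SD, n = 4).

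CD83 belongs with the genes of antigen presentation and costimulation, and 3 lists of such genes were read from the same fit. All of their members were named through the selected list, so their counts are no independent evidence of a direction. In the counts below, a probe that rose or fell is one that passed the threshold in that direction. Among all tested probes with a name, 23.7% passed the threshold (13.1% higher and 10.6% lower at Day 5), and their median fitted change was 0.62, against -0.01 over all tested probes. None of these calls remained with slide as a fixed block, with the background left in, with it plainly subtracted or with an offset of 16, settings under which 0 of all tested probes passed. With signal medians in place of means, 19 of all tested probes passed, and the calls given below for the 3 lists were lost as well. In that setting 1 other probe, of the inflammatory cytokine and NF-kB list, passed as lower.

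In the list of CD28 and B7 family receptors and ligands, fitted changes ran from -1.42 to 2.32, and 6 of 9 tested probes were above 0. Of the 9, 2 (22.2%) rose at Day 5 and 0 fell, where 23.7% of all tested probes with a name passed in either direction. Both belong to *cd276* (B7-H3, a ligand of the B7 family expressed on myeloid cells), with fitted changes of 2.32 (adjusted p = 0.044, limma) and 2.03 (adjusted p = 0.018, limma), each higher in 4 of 4 fish. Both missed the threshold without Fish 3 or without Fish 4, and the first also without Fish 1. The second of these probes did not exceed the negative-control limit on any Day 1 array and was at least 3.89-fold higher at Day 5. Further *cd276* probes had fitted changes of 2.02 (adjusted p = 0.13) and 1.29 (adjusted p = 0.14) and did not pass (limma for each). The median over the probes of the list, 4 of them of *cd276*, was 0.94. *Cd274*, which encodes the inhibitory ligand PD-L1, had 0.94 ± 0.28 (SE), and *cd28*, the costimulatory receptor of T cells, had -1.32 ± 0.46 (SE). Neither passed the threshold. Of the other members, *hhla2* had 0.92, *vtcn1* -1.42 and *btla* -1.27, and none of them passed. No Day 5 signal of *btla* exceeded the negative-control limit.

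In the list of antigen presentation and dendritic cell genes, 3 of 23 tested probes rose and 0 fell, and 21 of the 23 had a fitted change above 0, with a median of 1.09. The 3 called probes are a share close to the 13.1% of named probes called higher, and 53.4% of all tested named probes had a fitted change above 0. The 3 were probes of *zbtb46* (2.26, adjusted p = 0.037), a transcription factor of classical dendritic cells in mice, *hla-dpa1* (1.76, adjusted p = 0.023), an MHC class II chain, and *tap1* (1.62, adjusted p = 0.031), a part of the transporter that loads peptides on MHC class I (limma for each). Each was higher at Day 5 in 4 of 4 fish. Another *hla-dpa1* probe, measured in 2 fish, had 1.00 (adjusted p = 0.49), and another *tap1* probe had 1.08 (adjusted p = 0.11). Neither of these passed (limma for both). The 3 called probes all missed the threshold without Fish 3 or without Fish 4. *Zbtb46* and *tap1* also missed it without Fish 1, and *zbtb46* and *hla-dpa1* without Fish 2. The 3 probes of *irf8*, a transcription factor of monocyte and dendritic cell development, had 0.58, 1.07 and 1.16 and did not pass. The probes of the list with a fitted change below 0 were both of *cd209*. They had -1.93 and -1.35, each lower at Day 5 in 4 of 4 fish, whereas another *cd209* probe had 1.35. None of the *cd209* probes passed. The *cd83* mean of 1.00 lay between the probe median of this list (1.09) and that of the CD28 and B7 list (0.94). The genes of the latter changed in both directions, and *cd276* counts in it with several probes.

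In the list of inflammatory cytokine and NF-kB pathway genes, 5 of 17 tested probes rose and 2 fell (41.2% in either direction), with a median of 1.58. Among all tested probes with a name, 23.7% passed in either direction and the median was 0.62. *Ccl20*, a chemokine that attracts dendritic cells and lymphocytes, had a fitted change of 3.56 (adjusted p = 0.011, limma). None of its Day 1 signals exceeded the negative-control limit, so this fitted change rests on Day 1 values near the floor. As a bound, its level was at least 5.90-fold higher at Day 5. Both probes of *il12b*, a subunit of interleukin-12, rose by 2.39 (adjusted p = 0.020) and 3.27 (adjusted p = 0.018), as did *tlr3*, a receptor of double-stranded RNA, by 2.90 (adjusted p = 0.010), and a probe named *tnf-alpha-1* by 2.29 (adjusted p = 0.025; limma for each). Another *tnf* probe had 1.58 ± 0.37 (SE) and *socs1*, an inhibitor of cytokine signalling, 1.55 ± 0.35 (SE), and neither passed. *Il1b* fell by 1.55 (adjusted p = 0.038) and *tlr9*, a receptor of unmethylated DNA that was named after its value was seen, fell by 1.85 (adjusted p = 0.046; limma for both). All 7 probes missed the threshold without Fish 3, all except *ccl20* also missed it without Fish 4, and *il1b* and *tlr9* also without Fish 2.

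**Figure D4:**
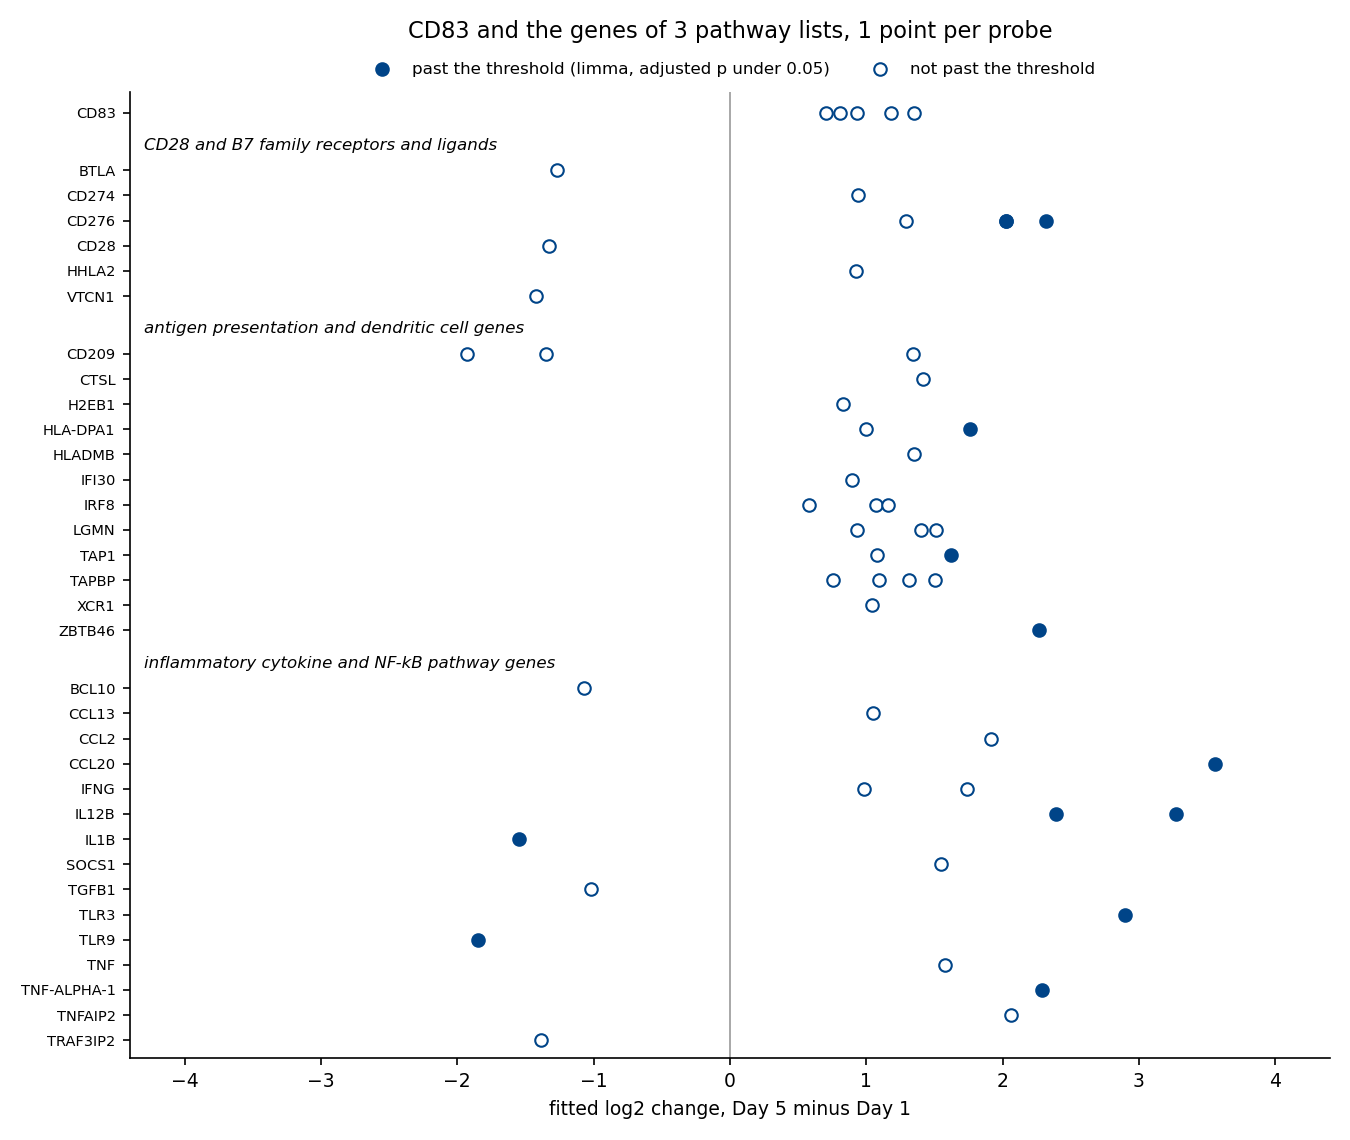
Fitted log2 change between Day 5 and Day 1 of CD83 and of the genes of 3 pathway lists, 1 point per probe. Filled points passed the limma threshold and open points did not. The 5 CD83 probes lie between 0.71 and 1.35, amid open points of the antigen presentation list and of the CD28 and B7 list. They lie at lower values than the *il12b* and *tlr3* points.

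Lineage marker lists were read from the same fit, and their counts stand beside the 23.7% of all tested probes with a name that passed the threshold. In these whole cultures, fewer cells of a type and less RNA per cell cannot be told apart. Of 13 tested macrophage marker probes 7 rose and 0 fell, and their mean centred level was 0.57 to 1.17 in the Day 5 samples against -1.25 to -0.66 in the Day 1 samples. Of 61 B cell marker probes 25 fell and 1, of *cd22*, rose (-1.01 to -0.37 at Day 5 against 0.57 to 0.93 at Day 1). Of 20 T and NK cell probes 0 rose and 1, of *cd5*, fell, with levels of -1.11 to 0.01 at Day 5 against 0.03 to 1.32 at Day 1. Of 23 erythroid probes 0 rose and 16 fell (-1.28 to -0.62 at Day 5 against 0.42 to 1.57 at Day 1). Of 4 neutrophil probes 2, both of *cxcr1*, fell and 1, of the antimicrobial peptide gene *camp*, rose (-0.84 to -0.02 at Day 5 against 0.38 to 0.62 at Day 1). Of 3 thrombocyte probes 0 passed (-0.97 to -0.20 at Day 5 against 0.27 to 1.03 at Day 1). Without Fish 3 or without Fish 4, 0 of the falls and 0 of the macrophage rises were called, *camp* was not called, and *cd22* was called without Fish 3 but not without Fish 4. Without Fish 2 the calls were 5 higher macrophage probes, 1 higher and 14 lower B cell probes, and 7 lower erythroid probes. To these come 1 lower T and NK cell probe and 1 lower neutrophil probe. With signal medians in place of means, 0 lineage marker probes passed in either direction. These lists also come from the selected names, and the part of any lineage in the *cd83* level was not tested.

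The named genes whose profile over the 8 arrays lay nearest to the *cd83* mean profile were sought among 1710 named probes with no missing value, by the root mean square difference of the centred log2 ratios. They were *aifm2* (0.18), which encodes an oxidoreductase that protects from ferroptosis, *acp2* (0.20), a lysosomal acid phosphatase, *ankrd11* (0.24), a chromatin regulator, *trim16* (0.24), a tripartite motif protein, *tmem50a* (0.25), a membrane protein, and *ier5* (0.26), an immediate early response gene. Their fitted changes ran from 0.87 (*ankrd11*) to 1.33 (*ier5*). None (0 of the 6) passed the limma threshold, and all 4 fish had the higher value at Day 5 for each gene. The search took the 6 smallest distances among the 1710 probes, so their closeness and shared direction follow from it. The 5 *cd83* probes, which were not searched for by distance, lay at 0.19 to 0.49 from their mean. Each of them is part of that mean, which lowers its distance, so these distances and those of the 6 genes are unlike measures. Each gene stands here for 1 probe. Over all 4 tested probes of the gene the mean change was 1.76 for *trim16* (1.25 here) and 0.94 for *tmem50a* (0.97 here).

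**Figure D5:**
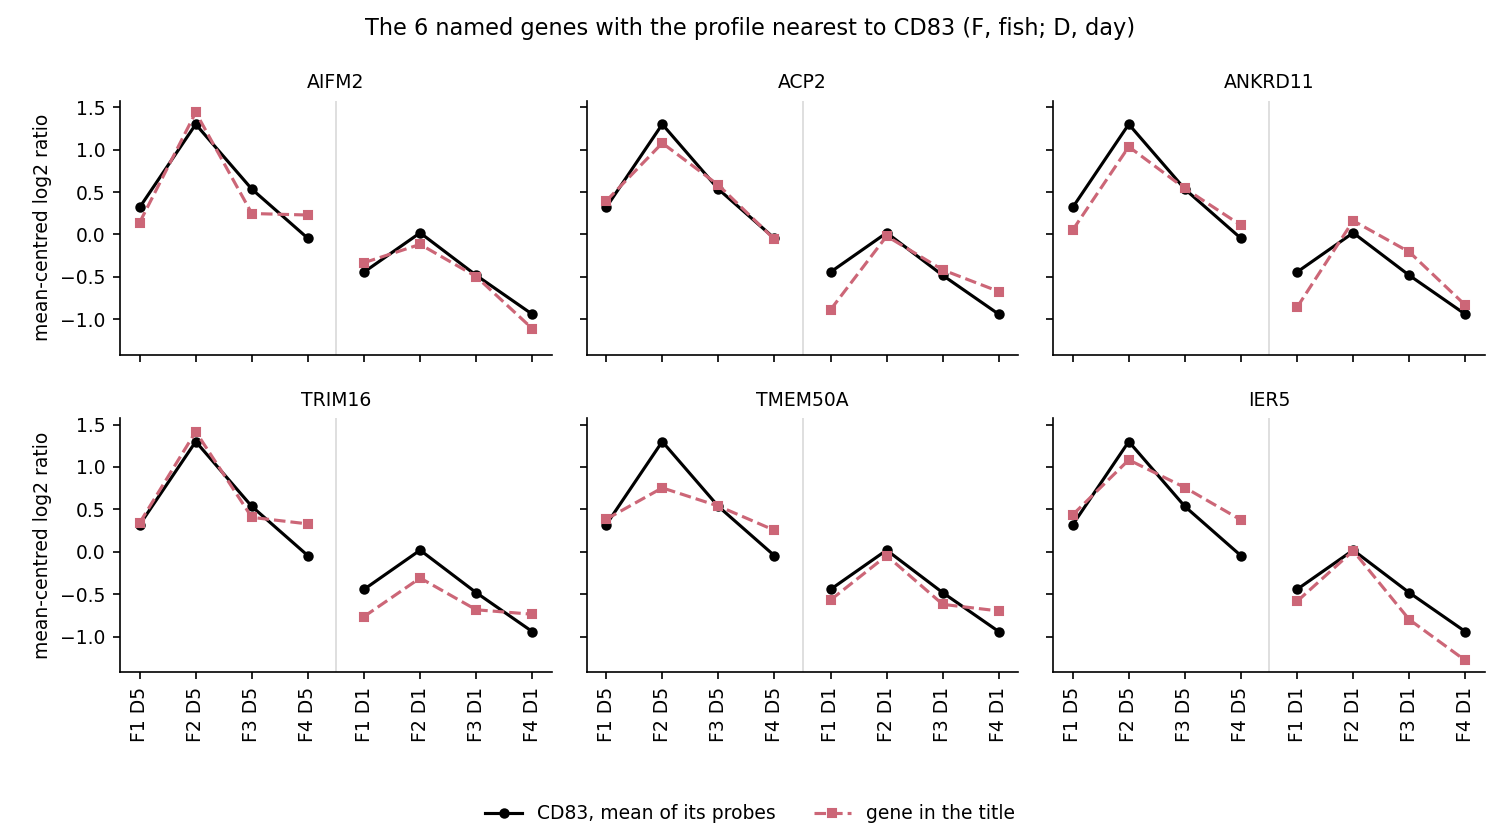
Mean-centred log2 ratio in the 8 samples (4 Day 5 samples left of 4 Day 1 samples) of the mean of the CD83 probes (black) and of each of the 6 nearest named genes (dashed). In every panel the highest sample is Fish 2 at Day 5, which the search for profiles near that of CD83 favours.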

How the data were processed

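The 5 probes and all gene lists were chosen with earlier results of these data known. RNA from adherent HKLs of 4 fish at 120 h and 24 h was hybridised to 8 arrays. The authors scanned the slides, extracted the spots in ImaGene and deposited, per spot and channel, raw signal and background intensity together with quality flags. They also deposited log2 ratios of 18108 probes, which were background-corrected, loess-normalized and imputed. Groups came from the day and fish number in the labels.

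In R 4.3.3 with limma 3.58.1, signal means were corrected with normexp (background median, offset 50), and each array was then loess-normalized with control spots at weight 0. Spots with a quality flag, other than for saturation alone, and spots not above the local background by 2 SD in both channels were dropped. Probes that lacked more than 2 arrays were left out, and 39410 were tested in limma (lmFit, eBayes) with a term for each fish, Benjamini-Hochberg adjustment and a threshold of 0.05. Samples that share a number are from the same animal, and their deviations from the day means correlated at -0.05, -0.08, 0.06 and 0.03 over all probes. Single channels were compared after Aquantile normalization. "At least" folds set the mean of the bright day against, per array of the dim day, the higher of the lowest signal over the negative-control limit and the probe's own value, and are open to dye bias without swapped dyes. Paired SAM was rewritten with all 16 sign flips. The procedures were tested on simulated data. Besides the *cd83* probes, the rule for names took members of each list with a probe past the threshold (up to 4 by size of change), set partners of CD83 and the 6 nearest profiles. Lineage lists are given as counts, with members named only where 1 or 2 were called in a direction. Outside the rule, *tlr9*, *hhla2*, *vtcn1*, *btla* and *cd209* were named after their values were seen. Symbols came from the study's annotated list. The authors' fold changes and q-values in that list were not used.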

Additional observations from a re-analysis of the deposited data

How the results depend on the processing

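The *cd83* change kept its direction under all alternatives run (background, normalization, missing spots, block, slide, the deposited values and each fish left out), where the mean of its probes ran from 0.77 with median centring to 1.28 with the deposited processed log2 ratios, against 1.00, and its smallest probe change ran from 0.50 to 0.97. The range among its probes ran from 0.35 with slide as a fixed block to 0.82 without Fish 1. The call did not hold to the same degree. Over these 17 alternatives 0 of the 5 probes passed the threshold, except in 2 of them. With the deposited values 1 passed, and with slide as a random block (within-slide correlation 0.92) 3 passed. In the fit restricted to probes above the negative controls all 5 were tested, but their calls were not read. The number of probes that passed among all tested, 537 (296 higher and 241 lower at Day 5), was 0 without background correction, with plain subtraction, with an offset of 16 and with slide as a fixed block, and 3835 to 4711 probes then had an unadjusted p under 0.05. It was 19 with signal medians, 1043 (415 higher) with median centring, 2468 with slide as a random block, 1068 with the deposited values and 2078 with paired SAM on them, and 1113 among probes above the negative controls. Leaving out a fish gave 8 (without Fish 4) to 509 (without Fish 1), with 37 without Fish 3 and 352 without Fish 2. Without the pairing (no replicate block) it was 788, 0 *cd83* probes passed, and the calls of 1 *cd276* probe and of *il1b* were lost. The median change of the 3 gene lists together, 1.16, was 0.85 with median centring and 1.54 with the deposited values. The causes were not tested. Keeping saturated spots out and slide as a fixed block were chosen after seeing the data.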
